A study of Homo sapiens with 5 samples.

Results

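The Hippo pathway group followed here holds 10 genes: the transcriptional co-activators YAP1 and WWTR1, the kinases STK3, STK4, LATS1 and LATS2, the kinase adaptors SAV1 and MOB1A, and the regulators PTPN14 and AJUBA. They were taken as every probe set that the array's annotation assigns to 1 of these genes, which gave 40 probe sets among 54675 and 10 genes among 19775. The group was chosen from earlier results of the same 5 arrays, YAP1 for its falling signal and the others as its pathway partners. The time courses of the members are therefore a description, and no p-value is given for any of them.

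The RNA came from IMR32, an established human neuroblastoma line, stably carrying an inducible short hairpin RNA (shRNA) directed at MEIS1b, an isoform of the homeobox factor MEIS1. Total RNA was hybridised to Affymetrix U133 Plus 2.0 arrays, with 1 array before doxycycline (0 h) and 1 array each at 24, 48, 96 and 192 h after doxycycline was added to switch the hairpin on. All 5 samples share the line and the integrated hairpin, and no time point has a replicate. Later times without doxycycline, and doxycycline without the hairpin, were not analysed here, so hairpin, doxycycline and time in culture cannot be told apart.

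In the Hippo pathway, STK3 and STK4 (also called MST2 and MST1), held by the scaffold SAV1, activate the kinases LATS1 and LATS2 together with MOB1A. The LATS kinases phosphorylate YAP1 and its paralog WWTR1 (TAZ), which are then kept in the cytoplasm or degraded, and unphosphorylated YAP1 and WWTR1 enter the nucleus and act through the TEAD DNA-binding factors. PTPN14 binds YAP1 and restrains it, AJUBA restrains the LATS kinases, and several of these genes, LATS2 and PTPN14 among them, are themselves known as YAP1 targets. In neuroblastoma YAP1 is known as a gene of the mesenchymal cell state, whereas IMR32 is a MYCN-amplified line of the sympathetic type. The arrays measure mRNA and do not see phosphorylation or the place of the protein in the cell.

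The annotated starts of these genes are shown first, as background to the time courses. RefSeq promoters (build GRCh38.p14; 250 bases before to 50 after each annotated start) matched 9 of 10 members with 13 entries; STK3 was not matched. The letters GGAATG, the core bound by TEAD factors, were searched on both strands and occurred in 4 of the 13 entries (30.8%), against 14.0% of all 35116 promoters of that length. The 4 members were YAP1, LATS2, PTPN14 and AJUBA. The letters TGACAG, a core bound by MEIS factors, occurred in 0 of the 13 entries and in 15.8% of all promoters. These are matches of letters in a window, not binding sites, and the relation to the time courses was noticed after both were seen and was not tested. The 30 bases around each GGAATG match follow, in the direction of transcription, with the match in capitals (CATTCC is the same core read on the other strand).
YAP1, chr11:102110273-102110302, plus strand, match at 162 to 157 bases before the start: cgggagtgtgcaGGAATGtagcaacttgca
LATS2, chr13:21061560-21061589, minus strand, match at 10 to 15 bases after the start: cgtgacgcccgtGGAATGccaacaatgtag
PTPN14, chr1:214551785-214551814, minus strand, match at 200 to 195 bases before the start: cctcccgggccgCATTCCtccccgcccccg
AJUBA, chr14:22976884-22976913, minus strand, match at 59 to 54 bases before the inner of its 2 annotated starts: gggaagttggctGGAATGaagccaaagcaa

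YAP1 leads the group, so the 250 bases before its start (chr11:102110197-102110446, plus strand) are given whole, with the GGAATG match in capitals. The window with the start is rich in G and C (70.7%).
YAP1 upstream: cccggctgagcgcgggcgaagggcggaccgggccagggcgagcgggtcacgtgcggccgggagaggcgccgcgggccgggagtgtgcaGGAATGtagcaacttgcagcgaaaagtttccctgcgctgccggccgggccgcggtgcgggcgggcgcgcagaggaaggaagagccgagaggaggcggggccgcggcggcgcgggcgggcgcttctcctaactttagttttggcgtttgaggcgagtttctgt

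Values are MAS5 signals, the authors' brightness values on a linear scale. Percentages of the 0 h level and the folds given for YAP1 probe sets are ratios of these signals. Changes and log2 ratios are on a log2(signal + 4.7) scale, where 4.7 is an offset that steadies dim signals and makes their changes look smaller. A fitted change is the slope of a straight line over the 5 arrays, taken as equal steps, times 4 steps, and is given with its standard error (SE). The median signal of all probe sets ran from 16.0 to 19.0 over the arrays, and the number of arrays limits the precision. Genes enter the fit if a probe set has a mean signal of at least 17.9, and the brightest such probe set stands for the gene. That left 11944 genes, among them 9 of the 10 members; 24 of the 40 member probe sets passed and 16 did not. Of the 9 members, 6 had a negative fitted change past the threshold (adjusted p under 0.05 in limma) and 0 a positive one. Over all genes 1.46% passed with a negative and 2.02% with a positive change, and since the members were chosen on this contrast nothing is read from the difference. The median fitted log2 change was -0.89 over the 9 members and 0.003 over all genes tested.

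**Figure D1:**
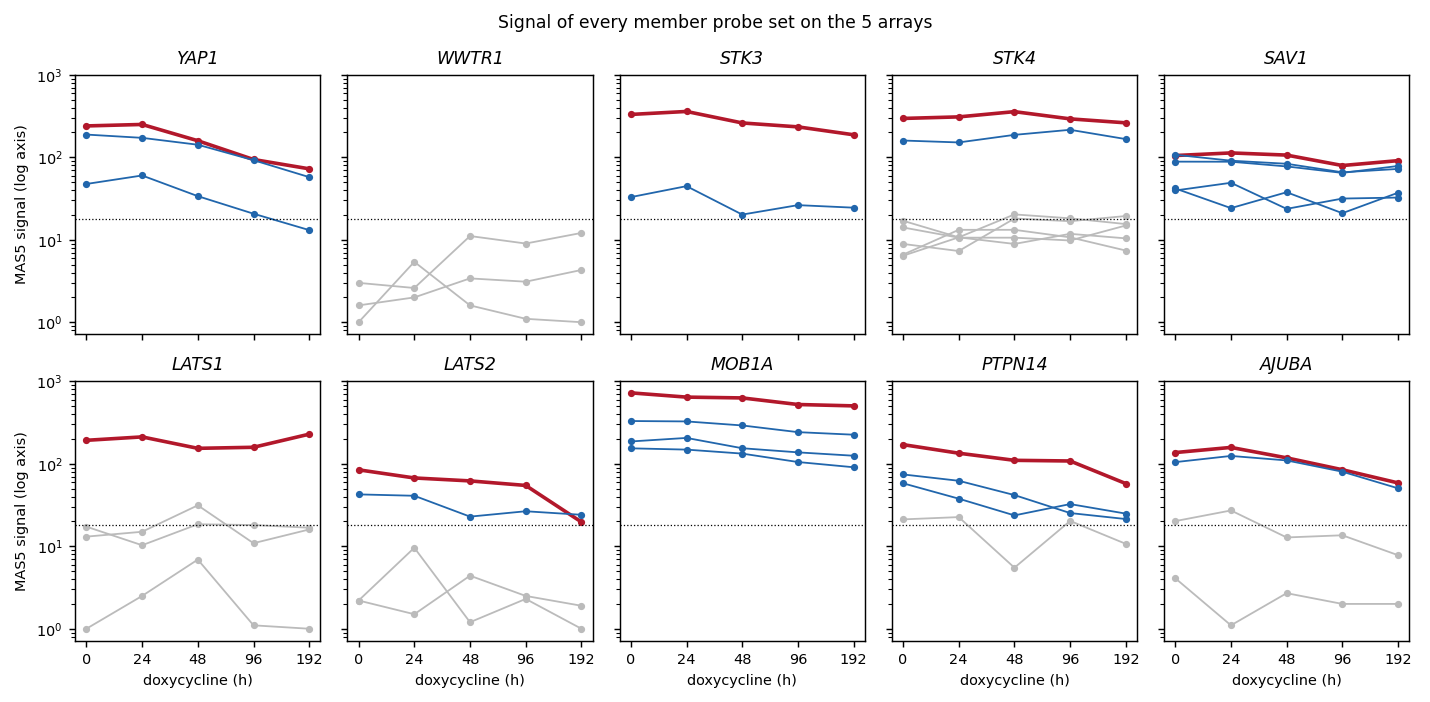
MAS5 signal (log axis) of all 40 member probe sets against hours of doxycycline, spaced by time step and not by hours, 1 array per time point. Red marks the probe set that stands for the gene, blue the other probe sets whose mean over the arrays is at least 17.9 (dotted line), and grey those below it. The 3 YAP1 lines run downward from 24 h, and the 3 WWTR1 lines stay below the dotted line.

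YAP1 read lower at 48, 96 and 192 h than at 0 h in all 3 of its probe sets. The brightest read 240.2, 250.3, 158.9, 94.1 and 72.5 at 0, 24, 48, 96 and 192 h. That is 104%, 66.2%, 39.2% and 30.2% of the 0 h level, so the signal stood near its starting level at 24 h and dropped at each of the next 3 steps. The fitted log2 change was -1.88 ± 0.23 (SE), the 14th lowest of 11944 genes. The next probe set read 188.7, 172.2, 142.1, 92.3 and 57.5, and the dimmest 47.5, 60.2, 33.8, 20.7 and 13.1. At 192 h the 3 probe sets were 3.31-fold, 3.28-fold and 3.63-fold below 0 h in signal, and at 24 h they lay on both sides of it (104%, 91.3% and 127%). Probe sets of a gene share the RNA of each array, so their agreement is no replicate of the time course. Fewer cells with YAP1 mRNA and less YAP1 mRNA per cell cannot be told apart in such bulk RNA.

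WWTR1, the other co-activator, was dim throughout. Its brightest probe set read 3.0, 2.6, 11.1, 9.0 and 12.1 at 0, 24, 48, 96 and 192 h. The other probe sets read 1.6, 2.0, 3.4, 3.1 and 4.3, and 1.0, 5.4, 1.6, 1.1 and 1.0. A signal of 1.0 is the floor of the deposited values. None of the 3 passed the filter on signal, so WWTR1 has no fitted change. The brightest was higher at 48, 96 and 192 h than at 0 and 24 h, at a level where MAS5 signals are noisy.

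The upstream kinases STK3 and STK4 differed in their course. STK3 read 331.1, 359.8, 261.0, 234.0 and 187.6 at 0, 24, 48, 96 and 192 h, which leaves 56.7% of the starting level at the end. Its fitted log2 change was -0.89 ± 0.17 (SE), and the dimmer probe set, 32.9 at 0 h and 24.5 at 192 h, gave -0.56 ± 0.42. STK4 read 296.1, 309.2, 357.9, 292.5 and 261.9, with its highest value at 48 h and a fitted change of -0.17 ± 0.18. Its next probe set read 159.8, 151.5, 187.2, 215.6 and 166.3 and gave 0.24 ± 0.21, so the direction for STK4 was not the same in both, and 5 further STK4 probe sets were below the filter. The fitted change of STK3 was 0.72 lower than that of STK4 on the log2 scale, a difference that was not tested.

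SAV1, the scaffold of these kinases, moved little in its brightest probe set and more in the next. The brightest read 105.1, 113.0, 106.4, 79.5 and 91.1 at 0, 24, 48, 96 and 192 h, with a fitted log2 change of -0.35 ± 0.23 (SE). The next read 107.4, 91.0, 83.5, 65.8 and 72.3 (-0.61 ± 0.23), below 0 h on all induced arrays. All 5 SAV1 probe sets had a negative fitted change, from -0.61 to -0.19. The 2 dimmest of them are of a type that can also bind unrelated transcripts, and they read 39.6 and 41.9 at 0 h against 32.5 and 37.2 at 192 h.

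LATS1 and LATS2, the kinases that phosphorylate YAP1, parted at the last array. LATS1 read 192.9, 212.2, 154.2, 158.8 and 229.0 at 0, 24, 48, 96 and 192 h, so the last array was the highest, and the fitted log2 change was 0.03 ± 0.24 (SE). LATS2 read 84.6, 67.4, 62.1, 54.7 and 19.7, lower at every step, with 23.3% of the 0 h level left at 192 h and a fitted change of -1.61 ± 0.37. Most of that came in the last step, where LATS2 dropped by 1.28 on the log2 scale. The other LATS2 probe set past the filter did not show that drop: it read 42.6, 41.0, 22.9, 26.6 and 24.1, with a fitted change of -0.79 ± 0.37. The fitted change of LATS2 was 1.64 lower than that of LATS1 on the log2 scale, and this was not tested either. Without the 192 h array LATS2 had -0.75 ± 0.36 and LATS1 -0.51 ± 0.27, and the gap was 0.24, so the distance between them rests on that array. The remaining 3 LATS1 and 2 LATS2 probe sets were below the filter.

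MOB1A, the LATS co-activator, read 725.9, 644.5, 630.1, 524.3 and 504.5 at 0, 24, 48, 96 and 192 h. The decline was small and the same in direction at every step, with a fitted log2 change of -0.53 ± 0.13 (SE). Its other 3 probe sets gave -0.60, -0.67 and -0.78, and all 4 stood between 58.9% and 69.5% of their 0 h level at 192 h.

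PTPN14, a phosphatase that holds YAP1 in the cytoplasm, read 171.0, 134.6, 110.3, 108.3 and 57.6 at 0, 24, 48, 96 and 192 h. Its fitted log2 change was -1.32 ± 0.24 (SE), and 33.7% of the starting level was left; without the 192 h array the change was -0.87 ± 0.28. The next probe set read 74.4, 62.3, 41.8, 25.3 and 21.4 (-1.74 ± 0.31), with its main drop before 96 h and not after it. The dimmest of the 3 past the filter read 58.1, 37.8, 23.7, 32.5 and 24.9 (-0.94 ± 0.38). PTPN14 was thus below 0 h on all 4 induced arrays in the 3 probe sets past the filter, and they differed in when the drop came.

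AJUBA, a LIM-domain protein that restrains the LATS kinases, read 137.0, 158.2, 118.2, 84.8 and 58.7 at 0, 24, 48, 96 and 192 h. The signal was above its start at 24 h and then dropped at each step, to 42.8% at 192 h, with a fitted log2 change of -1.27 ± 0.26 (SE). The other probe set past the filter read 104.9, 124.7, 110.0, 80.3 and 50.5 (-1.03 ± 0.29). The order of its values was nearly that of the brightest, with 48 h still above 0 h.

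At 192 h, 8 of the 9 members with a fit were below 0 h, against 51.2% of all genes tested. In their brightest probe sets YAP1, LATS2, PTPN14 and AJUBA were at least 2-fold lower than at 0 h on the log2(signal + 4.7) scale, against 1.93% of all genes. That is a comparison of 2 single arrays that also belongs to the contrast the members were chosen on. On the same scale the other probe set past the filter was 1.64-fold lower for LATS2 and 1.99-fold lower for AJUBA. Of the 24 member probe sets past the filter, 22 had a negative fitted change.

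How many members passed varied with the array left out, and since the members were chosen on these arrays the counts are a description. The fitted log2 change of YAP1 was -2.36 to -1.71 with 1 array left out. With the 0 h or the 24 h array left out 3 members passed on the negative side, with the 48 h or the 96 h array left out 5, and with the 192 h array left out 1, which was YAP1. MOB1A passed in 0 of these 5 fits. Calls over all genes varied as well, with 174 on the negative side when all arrays were used. Without the 0, 24, 48, 96 or 192 h array they numbered 69, 118, 167, 107 and 97. When probe sets were averaged, YAP1, MOB1A, PTPN14 and AJUBA passed, and LATS2 and STK3 did not. Over all genes 139 then passed on the negative side. With no filter on signal, which puts all 19775 genes into the fit, 0 members and 5 of all genes passed on the negative side. The filter does not enter YAP1's slope, and its SE there was 0.25.

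The poly-A spike-ins, bacterial RNAs added before labelling, moved over the arrays as well. Their mean log2 difference from 0 h was 0.10, -0.45, -0.61 and -0.25 on the induced arrays in order of time. With their level as a covariate YAP1 (-1.72), LATS2 (-2.24) and PTPN14 (-1.64) passed, and AJUBA (-1.32), STK3 (-0.82) and MOB1A (-0.54) did not. Over all genes 112 passed on the negative side with this covariate, against 174 without it. Setting the array medians equal moved the median fitted change of all genes by -0.11; relative to it YAP1 was at -1.88 and MOB1A, which no longer passed, at -0.54.

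**Figure D2:**
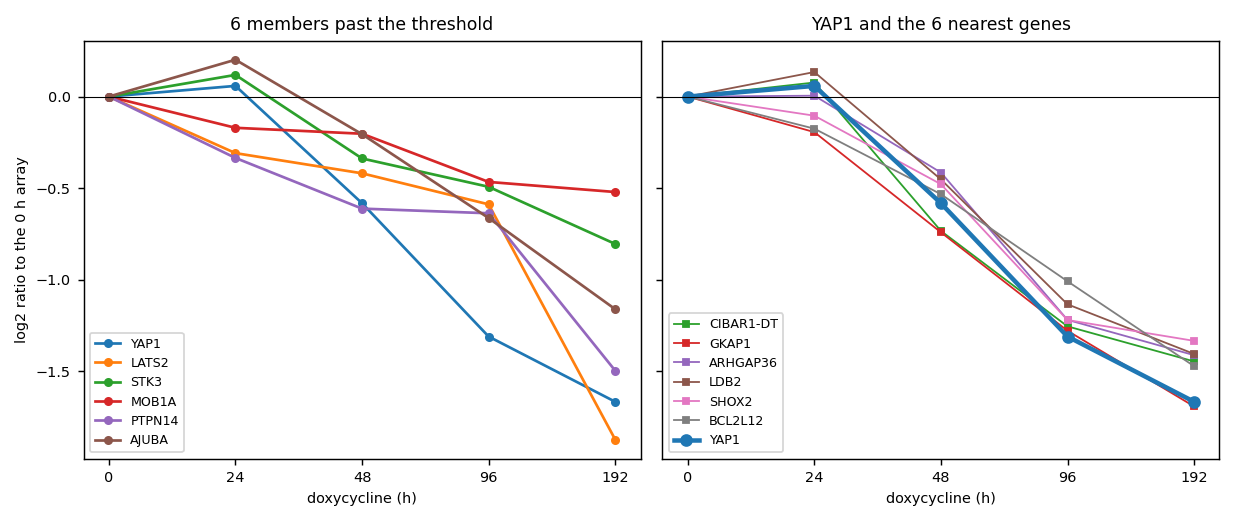
Log2 ratio to the 0 h array (1 array per point, spaced by time step) for the 6 members past the threshold (left) and for YAP1 with the 6 genes of most similar course (right). Each gene is shown by its brightest probe set. In these LATS2 and PTPN14 drop most in the last step, to -1.87 and -1.50, while YAP1 reaches -1.31 by 96 h.

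The step at which the signal of the brightest probe set dropped differed among the members. For YAP1 the log2 ratio went through 0.06, -0.58, -1.31 and -1.67 on the induced arrays in order of time. For AJUBA it was 0.20, -0.21, -0.66 and -1.16, and for STK3 0.12, -0.34, -0.49 and -0.80, so the brightest probe sets of these 3 genes were above 0 h at 24 h. LATS2 (-0.31, -0.42, -0.59 and -1.87) and PTPN14 (-0.33, -0.61, -0.64 and -1.50) were already lower at 24 h. Their next probe sets took another course, at -0.05, -0.78, -0.60 and -0.72 for LATS2 and -0.24, -0.77, -1.40 and -1.60 for PTPN14. Probe sets of 1 gene thus differed in timing too, and a difference in timing between members was not tested.

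Likeness to YAP1 was measured as the root mean square difference of log2 ratios to 0 h over the 4 induced arrays. The 6 nearest of 11943 other genes were the long non-coding RNA CIBAR1-DT (0.14), GKAP1 (0.15), a protein that anchors cyclic GMP-dependent kinase, ARHGAP36 (0.16), the LIM-domain-binding cofactor LDB2 (0.17), the homeobox gene SHOX2 (0.20) and the BCL2 family member BCL2L12 (0.22). GKAP1 read 893.2, 780.2, 532.6, 365.5 and 273.4, and ARHGAP36 475.4, 477.0, 355.5, 201.6 and 175.8. LDB2 read 109.4, 120.5, 78.7, 47.3 and 38.4. Among the members PTPN14 lay nearest to YAP1 (0.40, rank 45), followed by LATS2 (0.43, rank 62) and AJUBA (0.46, rank 79), while LATS1 ranked 5420th. This is a description over 4 points that share the 0 h array.

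The hairpin's target was lower on every induced array. The brighter MEIS1 probe set stood at 80.9%, 80.5%, 81.5% and 74.8% of 0 h, and its fitted log2 change of -0.33 ± 0.14 (SE) did not pass (limma adjusted p = 0.251). Without the 0 h array the change was -0.13 ± 0.19. Of 10 tested sympathetic neuroblastoma markers 3 (30%), CHGA, CHGB and GATA2, rose and 0 fell, against 2.02% and 1.46% of all genes. An unadjusted limma p under 0.05 was found for 6 of the 10 (60%), against 17.0% of all genes, and 1 of the 10 had a negative fitted change. MYCN read between 3957.2 and 4418.4. Of 9 tested fibroblast and mesenchymal markers 0 rose and 1 (11.1%), COL1A1, fell, and 2 (22.2%) had an unadjusted limma p under 0.05. The fitted log2 change was negative for 7 of these 9, with a median of -0.26, against 5939 of all 11944 genes. The summed signal of the 12 on the array was 5770.7, 6411.4, 6175.7, 5392.8 and 4336.3 in order of time, with PRRX1, FOSL1 and RUNX2 below the filter. This sum was lowest at 192 h, as YAP1 was, but it stood above 0 h at 48 h, where YAP1 was lower. Most of the sum came from 2 bright genes, VIM (2957 at 0 h, 2457.1 at 192 h, fitted log2 change -0.26 ± 0.19 SE) and TWIST1 (1336 and 945.6, -0.57 ± 0.15). Single markers differed: SNAI2 read 376.0 at 0 h and 417.4 at 192 h, with a fitted change of -0.04 ± 0.25. The dimmer FOSL2 was highest at 192 h (53.0), with a fitted change of 0.17 ± 0.47. The part of these genes in the result was not tested. The summed signal was 22.7 to 41.6 for 4 blood markers, 25.7 to 51.6 for 4 Schwann markers, 38.9 to 78.9 for 5 endothelial markers and 46.7 to 78.3 for 6 epithelial markers. The defining markers PTPRC, SOX10, PECAM1 and EPCAM were below the filter, as was TH of the sympathetic list. Dim markers past the filter were ERBB3 of the Schwann list (14.9 at 0 h, 27.3 at 192 h) and CDH5 of the endothelial list (19.3 and 12.3). In the epithelial list KRT8 (20.5 and 23.0) and ESRP1 (27.5 and 3.5) were past it.

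**Figure D3:**
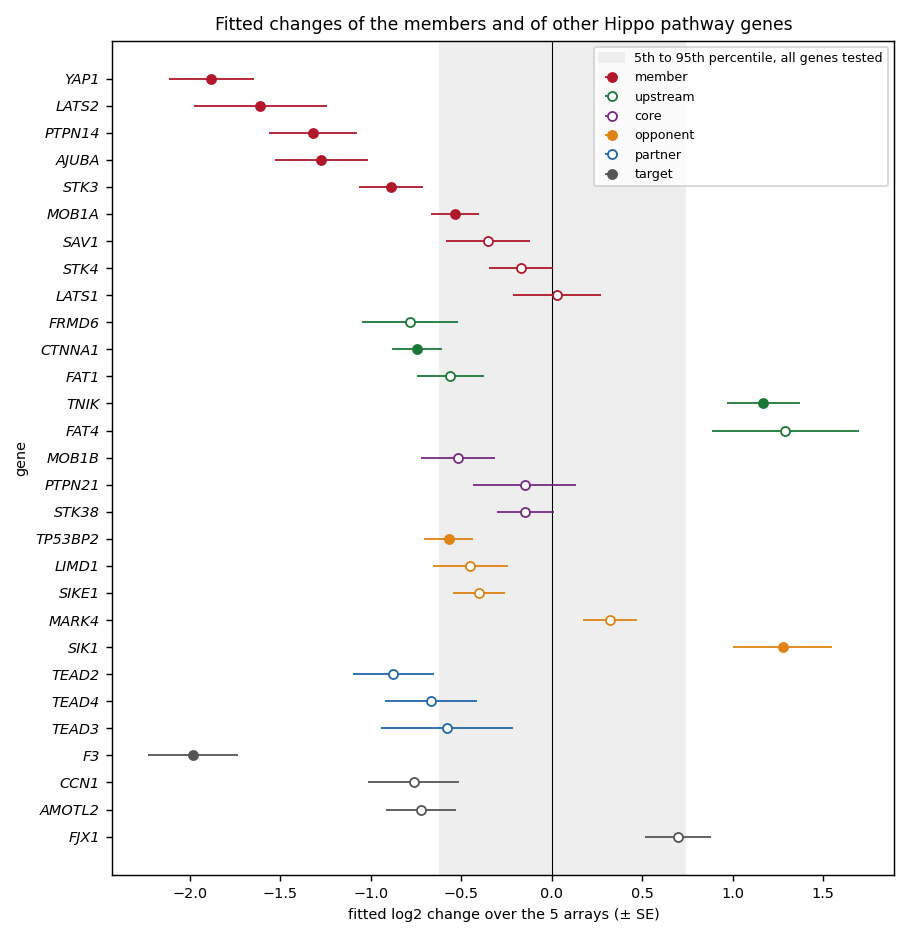
Fitted log2 change over the 5 arrays with its SE for the 9 members with a fit and for the named genes of the other Hippo lists, coloured by role. Filled points are past the limma threshold, and the grey band spans the 5th to 95th percentile of all genes tested (-0.62 to 0.74). Left of the band lie YAP1, LATS2, PTPN14, AJUBA, STK3, CTNNA1, FRMD6, TEAD2, TEAD4, F3, CCN1 and AMOTL2, and right of it TNIK, SIK1 and FAT4.

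The rest of the pathway, 76 further genes in 4 lists, held few genes past the threshold. Of the 61 that passed the filter 2 rose (3.28%) and 2 fell (3.28%), against 2.02% and 1.46% of all genes, and the median fitted log2 change was -0.12. With no filter on signal 0 of these genes and 0 of the target genes below passed. A p above the threshold does not show that the others did not change.

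Among 24 tested upstream regulators TNIK rose and CTNNA1 fell (4.17% each), against 2.02% and 1.46% of all genes. In limma 6 of the 24 (25%) had an unadjusted p under 0.05, against 17.0% of all genes. TNIK, a kinase of the MAP4K family that also acts in WNT signalling, read 195.1, 199.2, 220.1, 369.3 and 401.5 (fitted log2 change 1.17 ± 0.20 SE, limma adjusted p = 0.00799), with a positive change in all 4 probe sets. The call for TNIK was lost without the 192 h array, with the spike-in covariate and when probe sets were averaged. CTNNA1, the alpha-catenin that links cadherins to actin and binds YAP1 complexes, read 818.5, 700.0, 681.9, 581.6 and 468.6 (-0.74 ± 0.14, adjusted p = 0.0113), with a negative change in all 5 probe sets. The CTNNA1 call was lost without the 0 h or the 192 h array. The atypical cadherin FAT4, read as 11.3 at 0 h and 35.7 at 192 h (1.29 ± 0.41, adjusted p = 0.116), FRMD6 (-0.78, 0.141) and FAT1 (-0.56, 0.133) did not pass. FRMD6 passed with array medians set equal, with hours as the time axis and with the spike-in covariate (-1.43), and had -0.10 ± 0.24 without the 192 h array. The median of the 24 was 0.06.

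Of 4 other core genes 0 passed in limma, and 1 had an unadjusted p under 0.05, against 17.0% of all genes. That was MOB1B, the paralog of MOB1A, which read 248.2 at 0 h and 194.1 at 192 h (-0.52 ± 0.21 SE, adjusted p = 0.221). PTPN21, the paralog of PTPN14, had a fitted log2 change of -0.15 ± 0.29 and the LATS-related kinase STK38 one of -0.15 ± 0.16.

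Among 16 tested opponents of the Hippo kinases 1 rose and 1 fell (6.25% each), against 2.02% and 1.46% of all genes. In limma 4 of the 16 (25%) had an unadjusted p under 0.05, against 17.0% of all genes. SIK1, a salt-inducible kinase, read 34.0, 41.5, 63.4, 74.3 and 84.6 (fitted log2 change 1.27 ± 0.27 SE, limma adjusted p = 0.0249). The genome holds a near-identical copy of SIK1, so the signal cannot be given to either copy alone. TP53BP2, the scaffold ASPP2, read 762.9, 707.5, 693.7, 560.8 and 521.1 (-0.57 ± 0.14, adjusted p = 0.0397). Each of these 2 calls held in only 1 of the 5 fits that left out an array, that without the 48 h array, and both were lost with the spike-in covariate. LIMD1, a relative of AJUBA, had -0.45 (0.294), SIKE1 -0.40 (0.166) and MARK4 0.32 (0.297), and did not pass.

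Of 17 tested partners of YAP1 and WWTR1, the TEAD and VGLL factors, 14-3-3 proteins and others, 0 passed in limma and 3 (17.6%) had an unadjusted p under 0.05, near the 17.0% of all genes. The TEAD genes named by the rule were negative: TEAD2 read 410.3, 403.6, 399.0, 350.4 and 203.6 (fitted log2 change -0.88 ± 0.22 SE, adjusted p = 0.0548), TEAD4 had -0.67 (0.199) and TEAD3 -0.58 (0.466). TEAD1, the brightest TEAD gene, moved little: it read 767.6, 854.8, 828.2, 840.9 and 719.7 (-0.08 ± 0.14, adjusted p = 0.849). TEAD2 passed with array medians set equal, with hours as the time axis, with averaged probe sets, with the spike-in covariate and without the 48 h or the 96 h array. Without the 192 h array its change was -0.28 ± 0.20.

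Known target genes of YAP1 and WWTR1 were counted without the members LATS2, PTPN14 and AJUBA. Of 19 such genes 10 passed the filter, with a median fitted log2 change of -0.18. Among these 0 rose and 1 fell (10%), against 2.02% and 1.46% of all genes. An unadjusted limma p under 0.05 was found for 5 of the 10 (50%), in both directions, against 17.0% of all genes. The list was drawn up with earlier results of these arrays known, and the difference was not tested. F3, tissue factor, was the gene that fell (-1.98 ± 0.25 SE, limma adjusted p = 0.00176). CCN1 read 100.7 at 0 h and 58.6 at 192 h (-0.76, adjusted p = 0.132), and AMOTL2 182.9 and 108.1 (-0.72, 0.0684). In the other direction FJX1 read 130.2 and 224.3 (0.70, 0.0599) and RBMS3 284.7 and 420.7 (0.54, 0.061). AMOTL2 and FJX1 passed when probe sets were averaged, and AMOTL2 also with array medians set equal. CCN2, ANKRD1 and AXL were among the 9 targets below the filter or without a probe set of their own.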

How the data were processed

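The authors deposited log2 values of MAS5 signals for 5 arrays; per the submitters' processing notes the tools were MAS5 and GCOS, without versions. The log base and the floor at a signal of 1 come from the values themselves, since no label states them: every value (100%), raised back from log2, fell on a multiple of 0.1 to within 0.01. How the arrays were scaled to each other is not stated by a label and was not checked. No genome build is named, so only RefSeq promoters carry coordinates. In the platform annotation 41097 probe sets have 1 gene, 1801 several and 11777 none; 0 probe sets of the members named several. Gene identifiers of 41043 matched RefSeq, which changed 0 symbols.

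Signals were offset by 4.7 and set on a log2 scale. The 62 control probe sets were left out. The trend was fitted with limma 3.58.1 in R 4.3.3, with eBayes and a mean-variance trend (residual degrees of freedom 3, prior 9.07). Tests were two-sided, with Benjamini-Hochberg over 11944 genes and a threshold of 0.05. The fitting code was run on simulated data with independent noise and straight-line changes. Those data held no shift common to an array, so that run cannot show how the calls fare under such shifts. In all 415 genes passed, 241 up and 174 down, and 2028 had an unadjusted p under 0.05; 58.1% of the called genes rose, against 43.5% with array medians set equal. With no replicates, a p-value sets the slope against the scatter of 5 single arrays about a straight line, moderated by that of other genes. It does not measure the spread between repeat cultures. Members and lists were chosen with earlier results of these data known. Named were all members, each called gene of a list with up to 3 others of largest change, and the 6 genes nearest to YAP1. TEAD1, RBMS3, CCN2, ANKRD1, AXL, COL1A1, MYCN and the marker genes are named beyond that rule. Alternatives covered the offset, filter, scaling, probe sets, time axis, spike-in covariate and each array left out.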

Additional observations from a re-analysis of the deposited data

How the results depend on the processing

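Against 415 genes called (241 up, 174 down), 21 (16 up, 5 down) were called with no filter on signal and 230 (118 up, 112 down) with the spike-in covariate; leaving out each array gave 190 to 416 (121 to 249 up, 69 to 167 down). Without the 0, 96 or 192 h array the count was 190, 254 and 240. The members past the threshold numbered 6, against 0 with no filter, 4 with averaged probe sets, 3 with the spike-in covariate and 1 to 5 with an array left out. For the other Hippo genes 2 rose, against 0 with no filter, with averaged probe sets and with the spike-in covariate, 1 with hours as the time axis and 0 to 2 with an array left out; 2 fell, against 0 with no filter and 0 to 3 with an array left out. For the target genes 0 rose, against 1 with averaged probe sets, and 1 fell, against 0 with no filter and 2 with averaged probe sets or equal medians. YAP1 did not pass with no filter (-1.88, a slope the filter does not enter) and passed in the other fits run, on the arrays it was chosen on. Small changes turned sign: LATS1 was at -0.079 with equal medians and at -0.51 to 0.17 with an array left out, STK4 at 0.036 with averaged probe sets and at -0.40 to 0.062 with an array left out, STK38 at 0.031 with averaged probe sets, and PTPN21 at -0.61 to 0.24 with an array left out. The no-filter fit holds more and dimmer genes, and a left-out array leaves fewer points; other causes were not tested. No paired analysis was possible because each time point has 1 array. An offset 4 times smaller or larger gave YAP1 -1.93 and -1.70 and LATS2 -1.75 and -1.23.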
